A study of Mus musculus with 12 samples.

Results

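Liver RNA of mice fed a high-fat diet and given vehicle (HFD, replicates 1 to 4) was compared with that of mice fed a normal diet (ND, replicates 1 to 4). These 8 libraries were chosen by their sample titles out of 12 in the series, and every gene with enough counts was used, which left 14172 of 24787 gene symbols. All mice were of the C57Bl/6 strain and had eaten their diet for 2 months before dosing began. HFD mice then received vehicle into the peritoneum each day. The other 4 libraries came from HFD mice given 0.5 mg/kg of the compound MEC1. They entered the gene filter, the scaling and the shared estimate of the spread between libraries, but not the difference between HFD and ND. Sex, age, the length of dosing and any injection of ND mice are not given in the sources used here, so the difference between the diets carries any effect of injection. The labels do not say that each library came from a separate mouse, so the p-values reflect only how much these libraries vary, which may be technical.

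The liver takes up fatty acids from the blood, burns them in mitochondria and peroxisomes, stores them as triglyceride in lipid droplets, and exports them in lipoproteins. Fatty acids also act as ligands of PPARA, a nuclear receptor that turns on genes of fatty acid oxidation and ketone body synthesis in hepatocytes. The same cells make most plasma proteins, detoxify drugs with cytochrome P450 enzymes, and convert cholesterol to bile acids.

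The 8 libraries held 41969827 to 49880249 counts each. Levels are given as CPM, the counts of a gene per 1000000 counts of the scaled library, and 3 counts correspond to 0.0594 to 0.0725 CPM. The label of liver was checked with 16 hepatocyte markers, whose summed level was 148193 to 166399 CPM in ND and 136188 to 157926 CPM in HFD. None of the 16 passed with edgeR, while 4 had an unadjusted p under 0.05 and 3 passed with DESeq2. The first principal component, computed over all 12 libraries of the series, held 23.2% of the variance. On it ND libraries lay from -35.7 to -27.9 and HFD libraries from 13.9 (replicate 4) to 41.2 (replicate 3).

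The comparison asked what the diet did to liver RNA. With edgeR's quasi-likelihood test, 893 genes had an adjusted p under 0.05, which is 6.30% of those tested. Of these, 475 were higher in HFD (3.35% of the genes tested) and 418 were lower (2.95%). A total of 262 changed at least 2-fold, 141 upward and 121 downward. For 837 of the 893 genes the 4 HFD values did not overlap the 4 ND values. The share without overlap over all genes tested was not counted. A call itself favours such separation, so this number is not separate support for the calls. Over all genes tested the median log2 fold change was -0.003, 49.4% were positive, and the middle of the distribution ran from -0.19 to 0.18 between its quartiles. The counts below for each gene list are read against these values.

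The HFD libraries were not alike among themselves. HFD replicate 3 was the highest of the 4 HFD libraries in 261 of the 475 higher genes and the lowest in 184 of the 418 lower genes. HFD replicate 4 lay nearest to ND most often, as the lowest HFD library in 207 higher genes and the highest in 162 lower genes. Without HFD replicate 3 the number of called genes was 423, without ND replicate 4 it was 473, and without ND replicate 1 it was 562. A set of 359 genes, 200 higher and 159 lower, was called with all libraries and without each of the 8 in turn. Called genes whose values are given below belong to that set unless the loss of a call is stated.

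**Figure D1:**
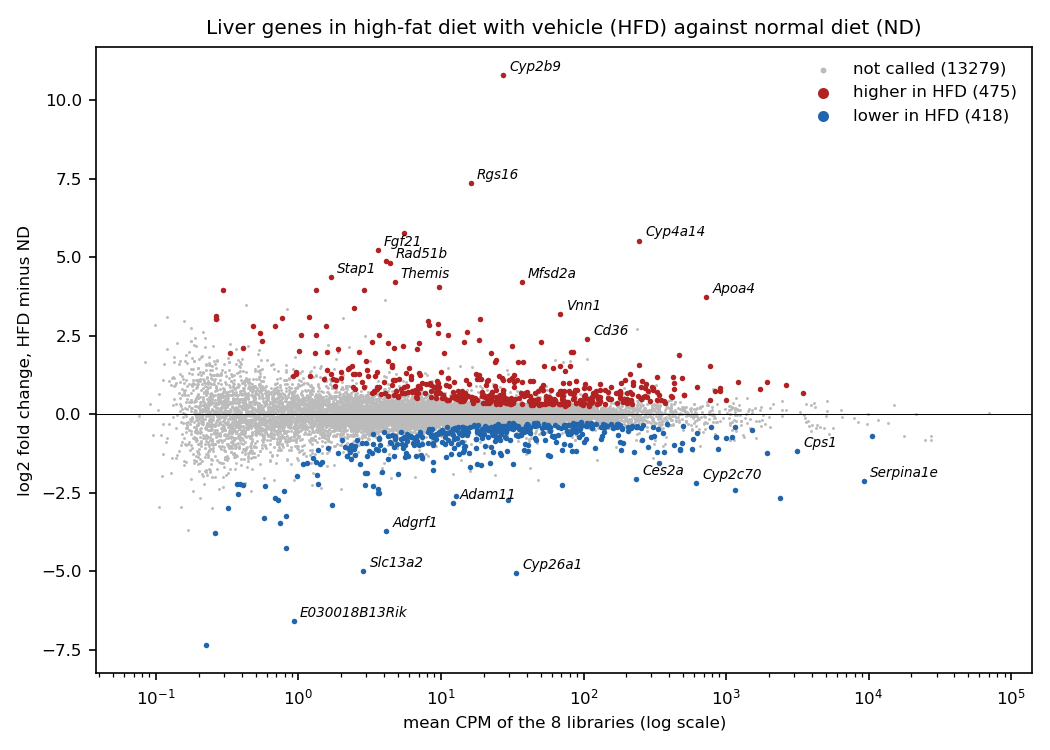
Log2 fold change of HFD minus ND against the mean CPM of the 8 libraries (log scale), 1 point per tested gene. The 475 higher genes are red, the 418 lower genes are blue, and grey genes did not pass the adjusted p of 0.05. Of the labelled genes Cyp2b9 is the highest point and E030018B13Rik the lowest.

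The largest rises by fold are given first. Rad51b, a DNA repair gene (chromosome 12, 79297282 to 79814690 in the mm10 build), stood at 0.61, 0.306, 0.145 and 0.124 CPM in the 4 ND libraries and at 4.54, 11.4, 12.7 and 5.16 CPM in the 4 HFD libraries. Every HFD library lay above every ND library, with replicates 2 and 3 highest. The log2 fold change was 4.83 ± 0.49 (SE; adjusted p = 0.0002). Stap1, which encodes a signal-transducing adaptor protein (chromosome 5, 86071746 to 86106125), read 0.271, 0.212, 0.0483 and 0.0827 CPM in ND against 4.57, 2.44, 4.00 and 1.81 CPM in HFD. The ND libraries held few counts of it, and the HFD libraries were all well above them (log2 fold change 4.36 ± 0.47, adjusted p = 0.00012).

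Rgs16, a regulator of G protein signalling, stood at 0.135, 0.00, 0.483 and 0.165 CPM in ND and at 19.6, 14.5, 62.8 and 31.6 CPM in HFD. HFD replicate 3 was the highest, and the groups did not overlap (7.36 ± 1.31, adjusted p = 0.0126). Its call was lost with limma-voom and held in the other settings. Themis, best known for its part in the selection of T cells in the thymus (chromosome 10, 28668360 to 28883818), stood at 0.135, 1.08, 0.628 and 0.124 CPM in ND and at 9.43, 12.1, 12 and 2.38 CPM in HFD. HFD replicate 4 was the lowest of its group but still above ND (4.20 ± 0.74, adjusted p = 0.00883, a call lost with limma-voom). The summed level of 14 T and natural killer cell markers was 5.17 to 8.11 CPM in ND and 5.33 to 8.93 CPM in HFD. None of the 11 that could be tested passed with edgeR, DESeq2 or limma-voom, and 3 had an unadjusted p under 0.05.

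For some other genes with large fold changes, the call depended on single libraries. Cyp2b9, a cytochrome gene with female-biased expression in mouse liver, had 5 counts in the ND libraries together and 10599 in the HFD libraries, a ratio of 2195 with a 95% exact interval from 940.5 to 6763 that covers counting error only. Its HFD values were 33.6, 50.2, 129.8 and 5.58 CPM, so that replicate 4 lay far below the others. The adjusted p was 0.0194, and leaving out any 1 ND library ended the call (up to adjusted p = 0.0670). Slc22a27, of a family of organic anion transporters, read 0.217 to 0.331 CPM in ND and 5.05, 7.87, 16.7 and 1.96 CPM in HFD, and Cidea, a lipid droplet protein gene, read 0.00 to 0.387 CPM in ND and 12.5, 12.8, 16.5 and 1.10 CPM in HFD. HFD replicate 4 was again the lowest for both genes. Their calls (adjusted p = 0.0332 and 0.0462) ended when any 1 of the other 7 libraries was left out, with adjusted p up to 0.0962 and 0.134.

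Among the largest falls was that of Slc13a2, a sodium-coupled transporter of citrate and succinate (chromosome 11, 78397087 to 78422217). It stood at 5.26, 8.81, 4.40 and 3.68 CPM in ND and at 0.390, 0.129, 0.0792 and 0.0882 CPM in HFD. All HFD libraries were below all ND libraries, and the log2 fold change was -5.01 ± 0.52 (adjusted p = 0.000124). The antisense gene Slc13a2os fell beside it (-4.27 ± 0.92, adjusted p = 0.0128, lost with DESeq2). Exons of the pair overlap on opposite strands over 26.2% of Slc13a2, and since the use of strand is not stated their reads cannot be told apart there.

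E030018B13Rik, annotated as a protein-coding gene without an assigned function, had 319 counts in the ND libraries together and 3 in the HFD libraries. The ND over HFD ratio was 103, with a 95% exact interval of 34.8 to 501. In the 8 libraries 71.9 to 74.7% of the counts from 1 to 20 were even numbers, so a fragment may have been counted at both ends, and this interval, that of Cyp2b9 and the floor of 3 counts may then be too narrow. ND replicate 2 held 3.89 CPM against 1.03 to 1.26 CPM in the other ND libraries. Adgrf1, an adhesion G protein-coupled receptor, read 8.85, 5.39, 8.87 and 7.59 CPM in ND and 0.597, 0.129, 0.0396 and 1.57 CPM in HFD (-3.73 ± 0.70, adjusted p = 0.0123). Adam11, a member of the ADAM family of membrane proteins, read 20.2, 24.6, 16.4 and 24.1 CPM against 2.36, 2.83, 3.21 and 3.59 CPM, a tight fall in every HFD library (-2.83 ± 0.38, adjusted p = 0.00189). Gulp1, an adaptor for the engulfment of dead cells, fell by 2.88 ± 0.40 on the log2 scale (adjusted p = 0.000706). Col25a1, a membrane collagen gene, stood at a log2 fold change of -3.48 ± 0.69 (adjusted p = 0.00708). It and Cyp3a41b (-3.31 ± 0.64, adjusted p = 0.00651) lay near 1 CPM in ND and near the floor in HFD, and neither was tested with the minimum of 1 CPM in 4 libraries.

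**Figure D2:**
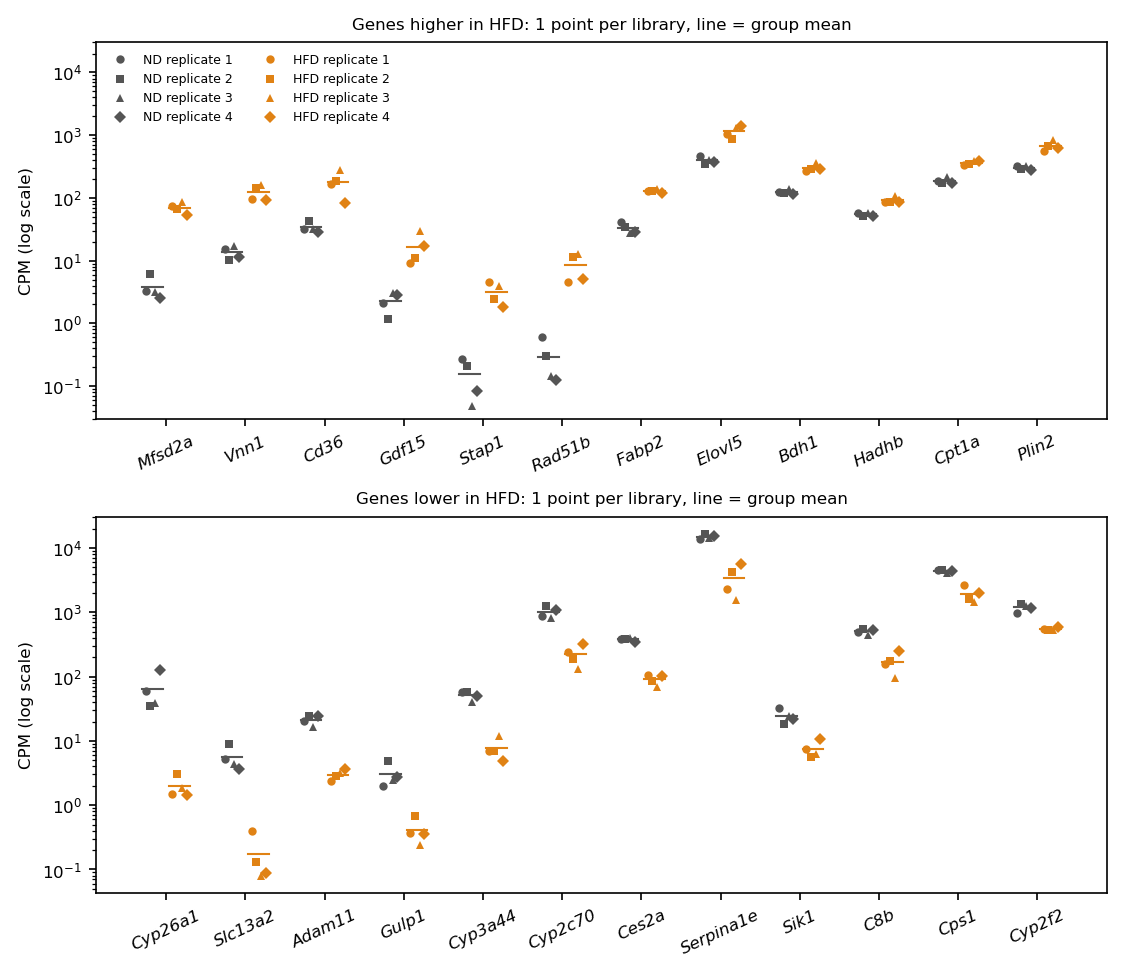
CPM of 24 genes in each of the 8 libraries on a log scale, with 12 genes higher in HFD above and 12 lower in HFD below. Grey points are ND and orange points are HFD, the symbol gives the replicate, and the line is the group mean. No gene shown has an HFD value inside the ND range.

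Genes of mitochondrial fatty acid oxidation and ketone body synthesis were higher in HFD. Of 27 tested members 18 rose and 9 did not pass, all 27 had a positive log2 fold change, and the median was 0.68. With 1 library left out, 14 to 18 members passed. The summed level of the list was 6008 to 6709 CPM in ND and 8806 to 10493 CPM in HFD. In bulk RNA, a change in the share of cells that express a gene and a change in RNA per cell cannot be told apart, here and for all genes below.

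Cpt1a, which admits long-chain fatty acids to mitochondria, read 183, 176, 213 and 171 CPM in ND and 338, 342, 392 and 382 CPM in HFD. The HFD libraries lay close together and well above ND (log2 fold change 0.97 ± 0.11, adjusted p = 0.000185). Bdh1, the last enzyme of ketone body synthesis, read 123, 121, 138 and 117 CPM against 267, 288, 357 and 292 CPM, with replicate 3 the highest of each group (1.27 ± 0.13, adjusted p = 0.000119). Genes of the oxidation cycle itself rose too. Acadl, which starts the oxidation of long acyl chains, rose by 0.68 ± 0.13 (adjusted p = 0.00489), and Hadhb, the thiolase subunit of the trifunctional protein, by 0.74 ± 0.10 (adjusted p = 0.000507). These 4 genes, from the entry step, the cycle and ketone body formation, rose by 1.60- to 2.41-fold. Pdk4, a fixed member of the list, overlapped between the groups and did not pass (0.16 ± 0.35, adjusted p = 0.848).

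Of 38 tested genes of peroxisomal and microsomal fatty acid oxidation, 17 rose, 1 fell and 20 did not pass, with a median of 0.49. The number that rose was 10 without ND replicate 4 and 11 without HFD replicate 3. Vnn1, a pantetheinase and known PPARA target (chromosome 10), read 15.5, 10.4, 17.3 and 11.4 CPM in ND and 96.1, 145, 163 and 91.9 CPM in HFD. No HFD library came near the ND range (3.18 ± 0.39, adjusted p = 0.00187). Ech1 and Eci2, isomerases that act on unsaturated acyl chains, rose by 0.86 ± 0.12 and 0.85 ± 0.12 (adjusted p = 0.000747 and 0.00078). Among the Cyp4a fatty acid hydroxylases, Cyp4a14 read 16.2, 3.39, 15.6 and 6.62 CPM against 289, 497, 848 and 295 CPM (5.53 ± 1.21, adjusted p = 0.028). ND replicates 2 and 4 were its lowest libraries, and leaving out any 1 ND library, HFD replicate 2 or HFD replicate 3 ended the call (adjusted p up to 0.0929). Cyp4a32 rose by 1.14 ± 0.15 (adjusted p = 0.000507) at 14.6 to 18.8 CPM in ND and 32.1 to 40.9 CPM in HFD, although reads may be shared among such similar genes. Acot1, a cytosolic thioesterase of acyl-CoA, stood at 11.8 to 19.2 CPM in ND and 26.6 to 55.8 CPM in HFD without passing (1.40 ± 0.48, adjusted p = 0.128).

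Of 21 genes of fatty acid uptake and binding, 5 rose and 16 did not pass, with 12 positive, a median of 0.19 and a lowest log2 fold change of -1.94. DESeq2 called 3 members lower and the fit of the 8 libraries alone called 2. Cd36, the membrane receptor for long-chain fatty acids, read 31.4, 43.4, 32.2 and 28.9 CPM in ND and 167, 185, 274 and 83.6 CPM in HFD. HFD replicate 4 was the lowest of its group (2.39 ± 0.38, adjusted p = 0.00671). Of the cytosolic fatty acid binding proteins, Fabp2, known mainly from intestine, rose most, from 41.4, 34.1, 27.7 and 28.8 CPM to 129, 127, 141 and 121 CPM (1.97 ± 0.23, adjusted p = 0.000719). Fabp1, the form most abundant in liver, read 2263, 1832, 1465 and 1724 CPM against 2986, 3902, 3651 and 3371 CPM (0.93 ± 0.20, adjusted p = 0.01). Fabp4, the adipocyte and macrophage form, read 5.94, 7.28, 5.49 and 6.60 CPM against 10.8, 11.3, 14.9 and 13.5 CPM (1.00 ± 0.14, adjusted p = 0.000729). All 3 genes rose without overlap. Of 10 adipocyte markers, which include Fabp4, Lep and Plin1 had 0 counts in all 8 libraries, which allows up to 0.0725 CPM in a library. Among the 6 tested, Fabp4 rose, Lipe (a hormone-sensitive lipase gene) fell, 4 were positive, the median was 0.51 and the highest log2 fold change was 3.63. The Lipe call (adjusted p = 0.0223) was lost without HFD replicate 1, 2 or 3 or ND replicate 2 or 4 (adjusted p up to 0.0730). The markers summed to 3322, 3101, 3398 and 3179 CPM in ND and to 3840.5, 3783, 3815 and 2342 CPM in HFD. Thus 3 HFD libraries lay above ND and replicate 4 below it. Fabp4 reached at most 14.9 CPM and Lipe at most 12.3 CPM, so other members of the list made up nearly all of these sums. The part of adipocytes in the Fabp4 result was not tested. Vldlr, the receptor for very low density lipoprotein, lay at 0.242 to 0.786 CPM in ND and 0.926 to 3.74 CPM in HFD and did not pass (2.21 ± 0.66, adjusted p = 0.0698).

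The start of Fabp1 and that of Apoc2, an apolipoprotein gene that also rose, are shown because each holds a direct repeat of the type bound by PPARA and other nuclear receptors, searched as AGGNCA followed, after any 1 base, by AGGTCA on both strands of the 250 bases before the start. The same letters precede F7, a coagulation factor gene that fell. The sequences are from RefSeq (GRCm38.p6), run 5′ to 3′ on the strand of the gene, and have the match in capitals. They lie at chr6:71199782-71199826 (plus strand), chr7:19678021-19678082 (minus strand) and chr8:13025970-13026033 (plus strand).
Fabp1: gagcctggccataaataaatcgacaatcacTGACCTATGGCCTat
Apoc2: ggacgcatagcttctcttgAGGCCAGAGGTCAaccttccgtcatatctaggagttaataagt
F7: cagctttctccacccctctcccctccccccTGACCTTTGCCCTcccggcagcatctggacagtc
The matches end 54, 109 and 21 bases before the RefSeq start. Fabp1 starts earlier in GENCODE M21, 2 bases after the match, and the other starts are the same in both annotations. Such a match was present in 27 of the 27025 genes with a promoter in that table (0.10%) and in 15 of the 10991 tested genes among them. It was present in 3 of 374 higher genes (Fabp1, Apoc2 and Pdzk1) and in 2 of 314 lower genes (F7 and Elovl1). Pdzk1 and Elovl1 are named only for the match, after it was seen. This motif and the 3 shown further on, with the genes shown, were chosen with the changes known, so their counts describe these windows and no more.

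Of 19 lipid droplet protein genes, 9 rose, 2 fell and 8 did not pass, with a median of 0.56. The number that rose was 2 without ND replicate 4 or HFD replicate 3, 3 without ND replicate 3, and 4 without ND replicate 1, ND replicate 2 or HFD replicate 1. Plin2, which coats lipid droplets in hepatocytes, read 318, 292, 326 and 282 CPM in ND and 564, 679, 834 and 620.3 CPM in HFD. Replicate 3 was the highest of each group (1.15 ± 0.22, adjusted p = 0.00871). Mgll, the lipase that releases the last fatty acid from monoglycerides, rose by 1.08 ± 0.16 (adjusted p = 0.00165). These are the 2 members whose calls held without each library. Of 17 genes of triglyceride synthesis, 4 rose and 13 did not pass (median -0.01). Mogat1, which acylates monoglycerides, read 0.271, 0.330, 0.773 and 0.0414 CPM in ND and 4.96, 5.95, 8.72 and 1.98 CPM in HFD, so that all HFD libraries were above all ND libraries (3.95 ± 0.62, adjusted p = 0.00344). Gk, glycerol kinase, and Agpat3, an acyltransferase, rose by 0.76 ± 0.14 and 0.52 ± 0.10 (adjusted p = 0.00621 and 0.0083). Dgat2, a fixed member of the list, overlapped between the groups and did not pass (-0.01 ± 0.11, adjusted p = 0.976).

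Genes of fatty acid synthesis did not move together. Among 19 members there were 2 rises and 3 falls, 14 were not past the threshold, and the median was -0.13. Without HFD replicate 4 the falls numbered 5, and 1 member rose without HFD replicate 1 or 3 or any 1 ND library. Insig2, which holds the SREBP transcription factors in the endoplasmic reticulum, read 251, 311, 245 and 233 CPM in ND and 659, 605, 646 and 467 CPM in HFD, with replicate 4 the lowest of each group (1.19 ± 0.20, adjusted p = 0.00298). The 3 that fell were Mlxipl, the carbohydrate-responsive transcription factor, Scd2, a stearoyl-CoA desaturase, and Mid1ip1, an activator of acetyl-CoA carboxylase. Their log2 fold changes were -0.65 ± 0.11, -0.98 ± 0.18 and -0.88 ± 0.18 (adjusted p = 0.00284, 0.00377 and 0.0128), and 25.5% of the exonic sequence of Mid1ip1 lies under a gene of the opposite strand. Fasn, a fixed member of the list, lay at 584 to 976 CPM in ND and 428 to 976 CPM in HFD. It did not pass (-0.04 ± 0.36, adjusted p = 0.970). The summed level of the list varied widely within HFD, from 6043 CPM in replicate 2 to 16034 CPM in replicate 4, against 10337 to 14924 CPM in ND.

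Genes that make and move polyunsaturated fatty acids showed 5 rises, 1 fall and 5 not past the threshold among 11 members. Elovl5, an elongase, read 471, 345, 408 and 372 CPM in ND and 1057, 855, 1302 and 1379.9 CPM in HFD (1.53 ± 0.20, adjusted p = 0.000699). Fads2, the delta-6 desaturase, read 206, 184, 223 and 194 CPM against 451, 291, 474 and 595 CPM (1.17 ± 0.19, adjusted p = 0.0029). Elovl2, which elongates longer chains, read 512, 413, 402 and 461 CPM against 735, 698, 744 and 1079.5 CPM (0.86 ± 0.17, adjusted p = 0.0064). In these 3 genes HFD replicate 4 was the highest library. Mfsd2a, a transporter of lysophosphatidylcholine, read 3.32, 6.10, 3.19 and 2.54 CPM against 74.6, 67.2, 84.7 and 53.3 CPM (4.21 ± 0.66, adjusted p = 0.00692). It was the largest rise among genes with over 50 CPM in every HFD library apart from Cyp4a14.

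Of 25 genes of cholesterol synthesis and SREBP2 control, 1 fell and 24 did not pass, and 4 were positive (median -0.24). Sqle, squalene epoxidase, read 123, 111, 126 and 119 CPM in ND and 75.5, 58.1, 97.7 and 128 CPM in HFD. HFD replicate 4 lay above all ND libraries and the other 3 below them, and the gene did not pass (-0.41 ± 0.21, adjusted p = 0.302). Without HFD replicate 4, 5 members of the list fell. The median ran from -0.40 to -0.11 over the settings tried.

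In bile acid synthesis and transport, 3 of 27 genes rose (1 without ND replicate 4), 2 fell and 22 did not pass. The falls numbered 1 without any of the libraries other than HFD replicate 4, and 5 with DESeq2. Cyp2c70, which makes the muricholic acids of rodents (chromosome 19), read 880.2, 1259, 819.9 and 1090 CPM in ND and 237, 189.5, 132 and 324 CPM in HFD. The groups were far apart (-2.20 ± 0.32, adjusted p = 0.00284). Abcb4, which exports phospholipid into bile, read 159.8, 189.5, 171 and 152 CPM against 339, 362, 401 and 290 CPM (1.05 ± 0.12, adjusted p = 0.000236). Cyp7a1, the rate-limiting enzyme of bile acid synthesis, lay lower in every HFD library (40.1 to 95.1 CPM) than in any ND library (142 to 239.8 CPM) but did not pass (-1.45 ± 0.70, adjusted p = 0.282).

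Of 43 cytochrome P450 genes of families 1 to 3, 10 fell and 2 rose, while 31 were not past the threshold. Of the 43, 11 were positive, and the median was -0.46. With 1 library left out, 7 to 10 members fell. Neither rise was called without ND replicate 1, 2 or 4 or with limma-voom. Their summed level was 16601 to 20237 CPM in ND and 11103 to 14400.4 CPM in HFD, without overlap. Cyp3a11, the main drug-metabolising member of its family, read 4349, 4516, 3466 and 4088 CPM against 585, 559, 1063 and 395 CPM (-2.66 ± 0.55, adjusted p = 0.0194). HFD replicate 3 was here the HFD library closest to ND, as it was for Cyp3a44 (4.83 to 11.8 CPM in HFD, 40.4 to 57.6 CPM in ND) and Cyp3a41a (2.10 to 5.90 CPM and 19.4 to 24 CPM). The adjusted p was 0.0103 for Cyp3a44 and 0.00424 for Cyp3a41a. The Cyp3a11 call was lost without HFD replicate 1 or 2 (adjusted p up to 0.0594), and reads may be shared among Cyp3a genes.

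Other P450 genes fell in every HFD library. Cyp2f2, a cytochrome of periportal hepatocytes, read 983, 1341, 1255 and 1183 CPM in ND and 559, 539, 536 and 583 CPM in HFD. The HFD values were nearly level (-1.10 ± 0.15, adjusted p = 0.000544). Cyp1a2, a target of the aryl hydrocarbon receptor, read 445, 589, 516 and 491 CPM against 267, 231, 200.1 and 189.8 CPM (-1.20 ± 0.21, adjusted p = 0.00523). Cyp2c55 fell by 2.52 ± 0.39 from a low level (adjusted p = 0.00187). Among 16 carboxylesterases, 4 fell (2 without HFD replicate 3), 1 rose and 11 did not pass. Ces2a, a hydrolase of esters and drugs, read 381, 384, 394 and 351 CPM against 106, 85.1, 69.5 and 100.3 CPM and had the smallest adjusted p among the genes described (4.35e-05; -2.06 ± 0.18). Ces3b fell by 0.92 ± 0.16 (adjusted p = 0.00312). Of 44 conjugating enzymes 7 fell and 37 did not pass, while 3 members rose without HFD replicate 4, with DESeq2 or with the 8 libraries alone. Among those that fell were Ugt2b1, a glucuronosyltransferase, and Nat8, an acetyltransferase, by 1.12 ± 0.19 and 1.23 ± 0.22 (adjusted p = 0.00364 and 0.00731).

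Retinoid metabolism held the second largest fall among the genes named by fold. Cyp26a1, which degrades retinoic acid and is itself induced by it (chromosome 19, 37697798 to 37701536), read 59.4, 35.2, 39.3 and 127 CPM in ND and 1.47, 3.04, 1.86 and 1.46 CPM in HFD. ND replicate 4 was the highest library and all HFD libraries were far below ND (-5.05 ± 0.74, adjusted p = 0.00496). Aldh1a1, which makes retinoic acid from retinal, read 1282, 1519.7, 1228 and 1037 CPM against 2238, 2486, 2522 and 1582 CPM (0.80 ± 0.16, adjusted p = 0.00723). Dhrs4, a retinal reductase, rose by 0.54 ± 0.09 (adjusted p = 0.00233). The degrading and the synthesising enzyme thus moved in opposite directions. In the whole list 4 of 26 rose (2 without HFD replicate 3), 1 fell (3 without HFD replicate 4) and 21 did not pass. The start of Cyp26a1 is shown for its repeat of the kind bound by retinoic acid receptors. The repeat was searched as a pair of AGTTCA with any 5 bases between on both strands. It was present before 7 of 27025 genes (0.03%) and 3 of 10991 tested genes, of which Cyp26a1 was the only called gene. The sequence is from RefSeq (GRCm38.p6) on the plus strand at chr19:37697746-37697797, and the match ends 15 bases before the RefSeq start and 5 before the GENCODE start.
Cyp26a1: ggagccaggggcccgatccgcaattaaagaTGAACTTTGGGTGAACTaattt

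Of 36 genes of glycolysis, fructose and pentose phosphate metabolism, 5 rose and 31 did not pass (median 0.16), and 1 rose without ND replicate 4 or HFD replicate 3 and 3 without ND replicate 1 or 3. Ldha, lactate dehydrogenase, read 711, 626, 723 and 581 CPM in ND and 884, 1208, 1173 and 1387 CPM in HFD (0.82 ± 0.16, adjusted p = 0.0076). Of 24 genes of gluconeogenesis 1 rose, 1 fell and 22 did not pass (8.3% called, against 6.30% of all genes tested). The fall was that of Sik1, a kinase that restrains the cAMP-driven programme of glucose output, from 32.6, 18.5, 24 and 22.2 CPM to 7.41, 5.69, 6.16 and 10.9 CPM (-1.69 ± 0.27, adjusted p = 0.00332). Igfbp2, a carrier of insulin-like growth factors, fell by 1.20 ± 0.24 (adjusted p = 0.0123).

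**Figure D3:**
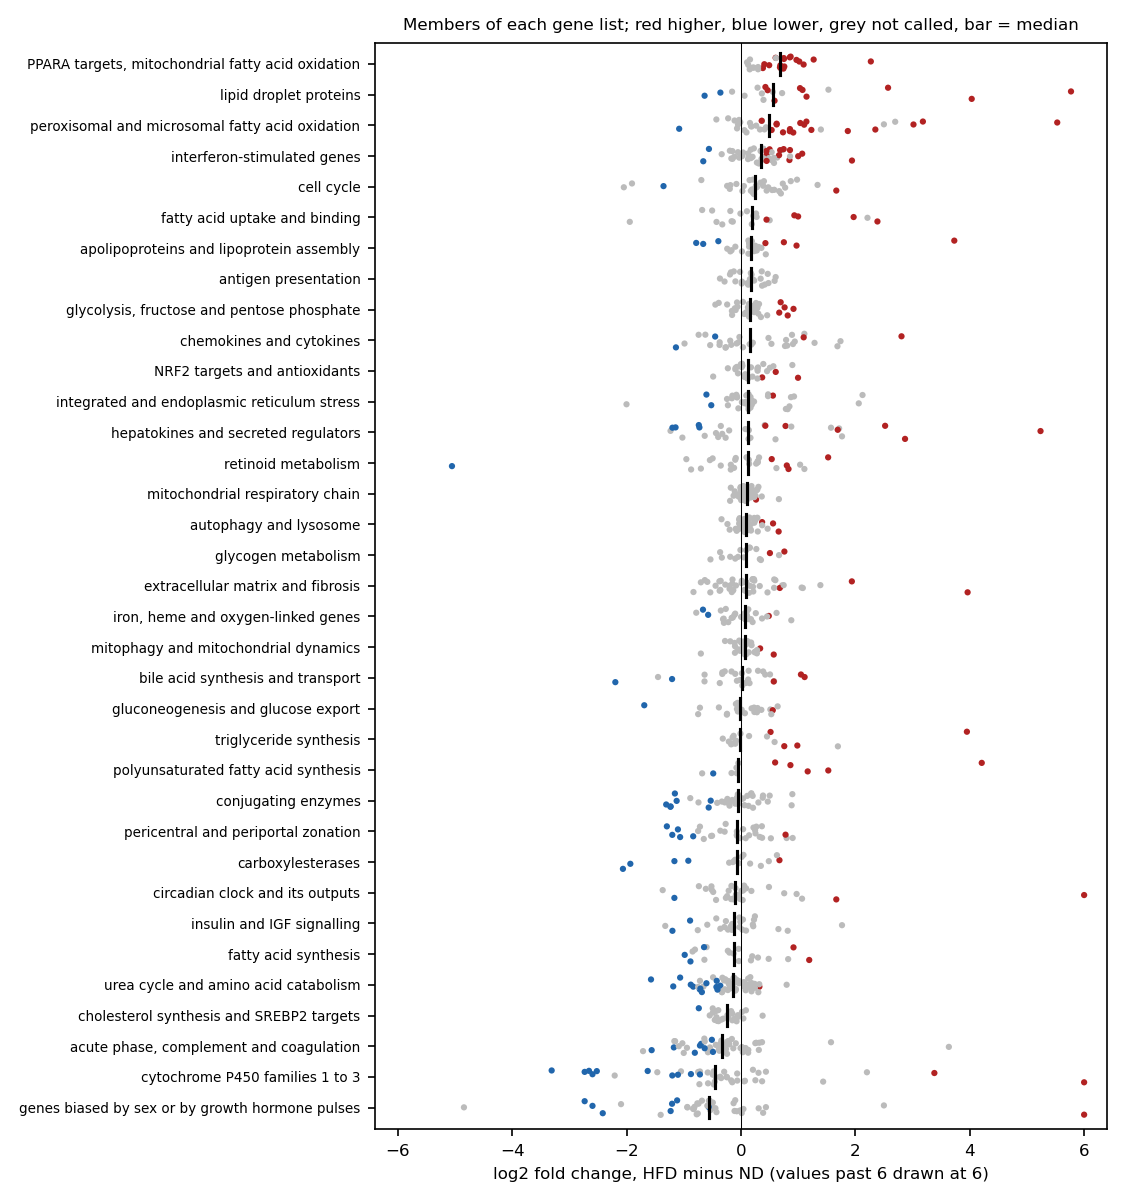
Log2 fold change of each tested member of 35 gene lists, ordered by the median of the list (black bar), with values past 6 drawn at 6. Red members rose, blue members fell and grey members did not pass. The list of mitochondrial fatty acid oxidation has the highest median (0.68) and the list of sex-biased and growth hormone-dependent genes the lowest (-0.56).

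Genes known to differ between the sexes or to depend on growth hormone pulses had the lowest median of the 35 lists, -0.56: 7 of 41 fell, 1 rose and 33 did not pass, and 8 were positive. The number that fell was 4 without ND replicate 1, 2 or 4 or HFD replicate 2, and 12 with DESeq2. The male-biased gene Selenbp2, a selenium-binding protein, read 1423, 2510.5, 1816 and 2089 CPM in ND and 507, 315, 119 and 527 CPM in HFD. HFD replicate 3 was the lowest by far (-2.42 ± 0.61, adjusted p = 0.0488), and leaving out any 1 of the 8 ended the call (adjusted p up to 0.119). Cyp3a41a and Cyp3a44, which are higher in females, fell, while Cyp2b9, also higher in females, rose.

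The 21 major urinary protein genes, which encode pheromone carriers secreted by the liver, took 16.2, 15.7, 14.3 and 16.8% of all counts in the 4 ND libraries and 13, 15.6, 5.37 and 11.9% in the 4 HFD libraries. HFD replicate 2 lay within the ND range and HFD replicate 3 at the bottom. None of the 21 passed with edgeR (smallest adjusted p = 0.0731) or limma-voom, 1 passed with DESeq2 and 6 had an unadjusted p under 0.05. Their median log2 fold change was -0.54. The choice of scaling bears on the direction of calls: with library totals the median over all genes was 0.12, and rises made up 79.5% of the calls compared with 53.2% under the TMM scaling used here.

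Serpina1e, one of the alpha-1 antitrypsin genes of the mouse (chromosome 12, 103946931 to 103958975), had the largest fall in CPM of all called genes. It read 14015, 16604, 14324 and 15210.4 CPM in ND and 2301, 4185, 1566 and 5674 CPM in HFD. No HFD library reached the ND range (-2.13 ± 0.37, adjusted p = 0.00592), although reads may be shared among the Serpina1 genes. Serpina3k, a neighbouring serpin gene, stood at -0.70 ± 0.18 (adjusted p = 0.0293) and lost its call without HFD replicate 1 or 3 or ND replicate 1, 2 or 4 (adjusted p up to 0.103).

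Of 57 acute phase, complement and coagulation genes 8 fell and 49 did not pass, 14 were positive, and the median was -0.33. The number that fell was 3 without HFD replicate 3, 4 without ND replicate 1, 2 or 4 or HFD replicate 1, and 5 without HFD replicate 2, while 14 fell with DESeq2 and 13 with the 8 libraries alone. C8b, a subunit of the membrane attack complex, read 489, 539, 449 and 534 CPM in ND and 159.6, 177, 95 and 249.9 CPM in HFD (-1.56 ± 0.29, adjusted p = 0.0103). C2, a protease of the classical pathway, read 109, 120.5, 127 and 132 CPM against 53.2, 46.3, 50.9 and 66.3 CPM (-1.17 ± 0.17, adjusted p = 0.00198). F7, coagulation factor VII, read 90.8, 98.0, 85.5 and 102 CPM against 62.8, 58.3, 49.6 and 71.5 CPM (-0.64 ± 0.12, adjusted p = 0.00472). In all 3 genes HFD replicate 3 or 2 was the lowest library and replicate 4 the highest of HFD.

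Among 59 enzymes of the urea cycle and amino acid breakdown 13 fell, 1 rose and 45 did not pass, with a median of -0.14, within the quartiles of all genes. Without 1 library the number that fell lay between 6 (HFD replicate 3) and 16 (HFD replicate 1), and it was 7 without ND replicate 4 or HFD replicate 2. With library totals 6 fell and 3 rose, and with RPKM 7 fell and 1 rose. Cps1, the first enzyme of the urea cycle, read 4541, 4519, 4040.3 and 4429 CPM in ND and 2652, 1635, 1419.5 and 2007 CPM in HFD (-1.18 ± 0.22, adjusted p = 0.00498). Hal, which starts histidine breakdown, read 349, 379, 389.6 and 409 CPM against 226, 185, 146 and 174 CPM (-1.06 ± 0.13, adjusted p = 0.000231). Gls2, the liver glutaminase, fell by 0.84 ± 0.11 (adjusted p = 0.000507), and Ddc, which makes amines from aromatic amino acids, by 0.88 ± 0.15 (adjusted p = 0.003). Of 31 zonation genes 5 fell, 1 rose and 25 did not pass. Those that fell included Cyp2f2, Hal and Gls2, known from periportal hepatocytes, and Cyp1a2, known from pericentral ones.

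Among hepatokines and other secreted regulators, 6 of 29 rose, 4 fell and 19 did not pass. Without ND replicate 4 or HFD replicate 2 or 3, 3 members rose, and with DESeq2 or library totals 10 did. Fgf21, a hormone of fasting and lipid metabolism, read 0.316, 0.00, 0.435 and 0.00 CPM in ND and 1.54, 7.38, 11.6 and 7.54 CPM in HFD. HFD replicate 1 was the lowest of its group but above ND (5.24 ± 0.91, adjusted p = 0.00908, a call lost with limma-voom). Gdf15, a hormone induced by cell stress, read 2.12, 1.15, 3.04 and 2.79 CPM against 9.09, 11.1, 29.2 and 17.2 CPM, with HFD replicate 3 the highest (2.87 ± 0.41, adjusted p = 0.00284). Inhbb, the beta B subunit of inhibin and activin, read 1.90, 0.989, 1.69 and 1.08 CPM against 4.45, 4.83, 4.44 and 4.54 CPM, the most even rise of the 3 (1.69 ± 0.25, adjusted p = 0.00107). Fetub, fetuin-B, fell by 0.73 ± 0.11 (adjusted p = 0.00131). Angptl4, an inhibitor of lipoprotein lipase and PPARA target, lay at 70.3 to 109.6 CPM in HFD and at 22.5, 15.8, 61.6 and 17.1 CPM in ND. The groups did not overlap, ND replicate 3 stood apart, and the gene did not pass (1.72 ± 0.46, adjusted p = 0.0609).

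Genes of the integrated and endoplasmic reticulum stress responses mostly did not pass (33 of 36, with 1 higher and 2 lower, the latter not called with library totals or RPKM). That is 8.3% called, against 6.30% of all genes tested. Atf4, the transcription factor at the centre of the integrated stress response, was lower in HFD, at 126, 84.7, 89.3 and 94.0 CPM in ND and 65.4, 64.7, 72.2 and 72.3 CPM in HFD (-0.52 ± 0.12, adjusted p = 0.0155), and its call was lost with RPKM and with library totals. Fgf21 and Gdf15, both known targets of that pathway, rose, and whether the pathway has a part in their rise was not tested. The start of Fgf21 is shown for its composite element bound by C/EBP and ATF proteins, searched as ATTGCATCA on both strands. The element was present before 52 of 27025 genes (0.19%) and 19 of 10991 tested genes. It was present in 1 of 374 higher genes (Fgf21 itself) and in 0 of 314 lower genes. The sequence is from RefSeq (GRCm38.p6) on the minus strand at chr7:45615592-45615660, with the match ending 131 bases before the start in both annotations.
Fgf21: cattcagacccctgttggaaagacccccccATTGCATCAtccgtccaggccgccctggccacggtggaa
Among 29 NRF2 targets and antioxidant genes, 3 rose and 26 did not pass, and 1 rose without ND replicate 1, 3 or 4 or HFD replicate 3. Gclc, which limits glutathione synthesis, read 284, 271, 326 and 267 CPM in ND and 471, 612, 730.3 and 478 CPM in HFD (1.00 ± 0.18, adjusted p = 0.0048).

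Among 49 interferon-stimulated genes there were 12 rises and 2 falls, and 35 were not past the threshold. Of the 49, 38 were positive, and the median was 0.35. With 1 library left out, 8 to 12 rose. Rsad2, the antiviral protein viperin, read 6.91, 5.63, 8.07 and 7.03 CPM in ND and 12, 13.4, 13.8 and 10.6 CPM in HFD (0.85 ± 0.16, adjusted p = 0.00595). Usp18, which removes ISG15 from proteins, read 3.63, 3.25, 4.78 and 3.99 CPM against 7.60, 6.26, 8.0 and 6.51 CPM (0.86 ± 0.17, adjusted p = 0.00632). Ifit1, which binds viral RNA ends, read 5.82, 5.18, 5.17 and 6.04 CPM against 12.9, 12.1, 10.5 and 9.09 CPM (1.00 ± 0.14, adjusted p = 0.000706). The HFD libraries were above ND in all 3 genes, by 1.80- to 2.00-fold. Ifi47, a GTPase induced by interferon gamma, moved the other way (-0.56 ± 0.12, adjusted p = 0.0132). The start of Ifit1 is shown for its interferon-stimulated response element, searched as AGTTTC and TTTCC with any 2 bases between on both strands. The element was found before 25 of 27025 genes (0.09%) and 18 of 10991 tested genes. Of these, 4 were among the 374 higher genes (Fcgr4, Gbp3, Ifit1 and Ifit3, the others named only for the match). The sequence is from RefSeq (GRCm38.p6) on the plus strand at chr19:34640753-34640825, and the match ends 93 bases before the RefSeq start and 75 before the GENCODE start.
Ifit1: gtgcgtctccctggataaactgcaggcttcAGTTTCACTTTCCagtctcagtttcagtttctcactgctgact

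Chemokine and adhesion genes gave few calls (2 of 33 higher and 2 lower). The rises numbered 4 without HFD replicate 1 and 5 with DESeq2, library totals, RPKM or the 8 libraries alone. The falls numbered 1 without HFD replicate 1 or 4 or any 1 ND library, and neither fall was called without HFD replicate 3. Ccl2, which attracts monocytes, stood at 0.226, 0.0942, 0.193 and 0.165 CPM in ND and at 1.06, 1.27, 1.60 and 0.882 CPM in HFD (2.81 ± 0.44, adjusted p = 0.00168), and was not tested with the minimum of 1 CPM in 4 libraries. Vcam1, an adhesion receptor for leukocytes, read 11.2, 7.35, 9.01 and 10.7 CPM against 18.2, 19.7, 20.2 and 23.8 CPM (1.10 ± 0.18, adjusted p = 0.00217). Mmp12, the macrophage elastase, is not a member of that list. It read 0.181, 0.00, 0.242 and 0.207 CPM against 3.28, 2.50, 3.39 and 0.838 CPM (3.96 ± 0.71, adjusted p = 0.0048). HFD replicate 4 was its lowest HFD library. Anxa2, an annexin of many cell types, read 12, 7.63, 9.18 and 8.38 CPM against 29.1, 36.4, 59.1 and 17.9 CPM (1.94 ± 0.33, adjusted p = 0.00811). Of 46 genes of extracellular matrix and fibrosis, 3 rose and 43 did not pass (median 0.08). That is 6.5% called, near the 6.30% of all genes tested. Without ND replicate 2, 2 of them fell, and with the 8 libraries alone 3 fell.

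Macrophage markers were summed beside these genes. The 17 markers of Kupffer cells and macrophages summed to 404, 511, 596 and 518 CPM in ND and to 505, 482, 744 and 714 CPM in HFD, so the groups overlapped. Of the 17, 15 were positive, 1 rose (Fcgr1, named after its value was seen, a call lost without ND replicate 1, 2 or 4 or HFD replicate 3 or 4) and the median was 0.23. The 13 markers of lipid-associated macrophages summed to 410.0 to 471 CPM in ND and 371 to 530.0 CPM in HFD. Of these 3 rose (Mmp12, Lgals3 and Gpnmb, the last 2 named after their values were seen). In all 9 were positive, the median was 0.23 and the lowest log2 fold change was -1.94. The rises numbered 2 with limma-voom and without HFD replicate 1, 2 or 3 or ND replicate 2, 3 or 4, and 5 with DESeq2. With DESeq2, or without HFD replicate 3 or 4, 1 marker was called lower. HFD replicate 4 combined the lowest Mmp12 and Anxa2 of HFD with a macrophage sum of 714 CPM. Whether macrophage number has a part in the immune gene changes was not tested.

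Of 11 cholangiocyte markers 1 was positive (median -0.36). None passed with edgeR or limma-voom, 1 passed with DESeq2 and 2 had an unadjusted p under 0.05. Their sum was 333 to 412 CPM in ND and 286 to 361 CPM in HFD. Of 14 sinusoidal endothelial markers none passed with edgeR, DESeq2 or limma-voom, with 2 at an unadjusted p under 0.05. Their sum was 404 to 628 CPM in ND and 546 to 687 CPM in HFD. Stellate cell markers summed to 342 to 530.3 CPM in ND and to 515, 449, 439 and 215 CPM in HFD, where replicate 4 was low. Neutrophil markers summed to 4.74 to 8.20 CPM in ND and to 3.88, 5.11, 13.1 and 17.4 CPM in HFD, where replicates 3 and 4 were high. B and plasma cell markers summed to 4.93 to 8.42 CPM in ND and 5.58 to 11.2 CPM in HFD, dendritic cell markers to 5.71 to 6.93 CPM and 6.87 to 7.5 CPM, and exocrine pancreas markers to 22.4 to 34.7 CPM and 15.5 to 34.7 CPM. Red cell markers ran from 2655 to 7331 CPM in ND and from 3060.2 to 6293 CPM in HFD. No stellate, neutrophil or red cell marker passed with edgeR or limma-voom, with 2, 2 and 0 at an unadjusted p under 0.05 and 1, 1 and 0 past the threshold with DESeq2.

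**Figure D4:**
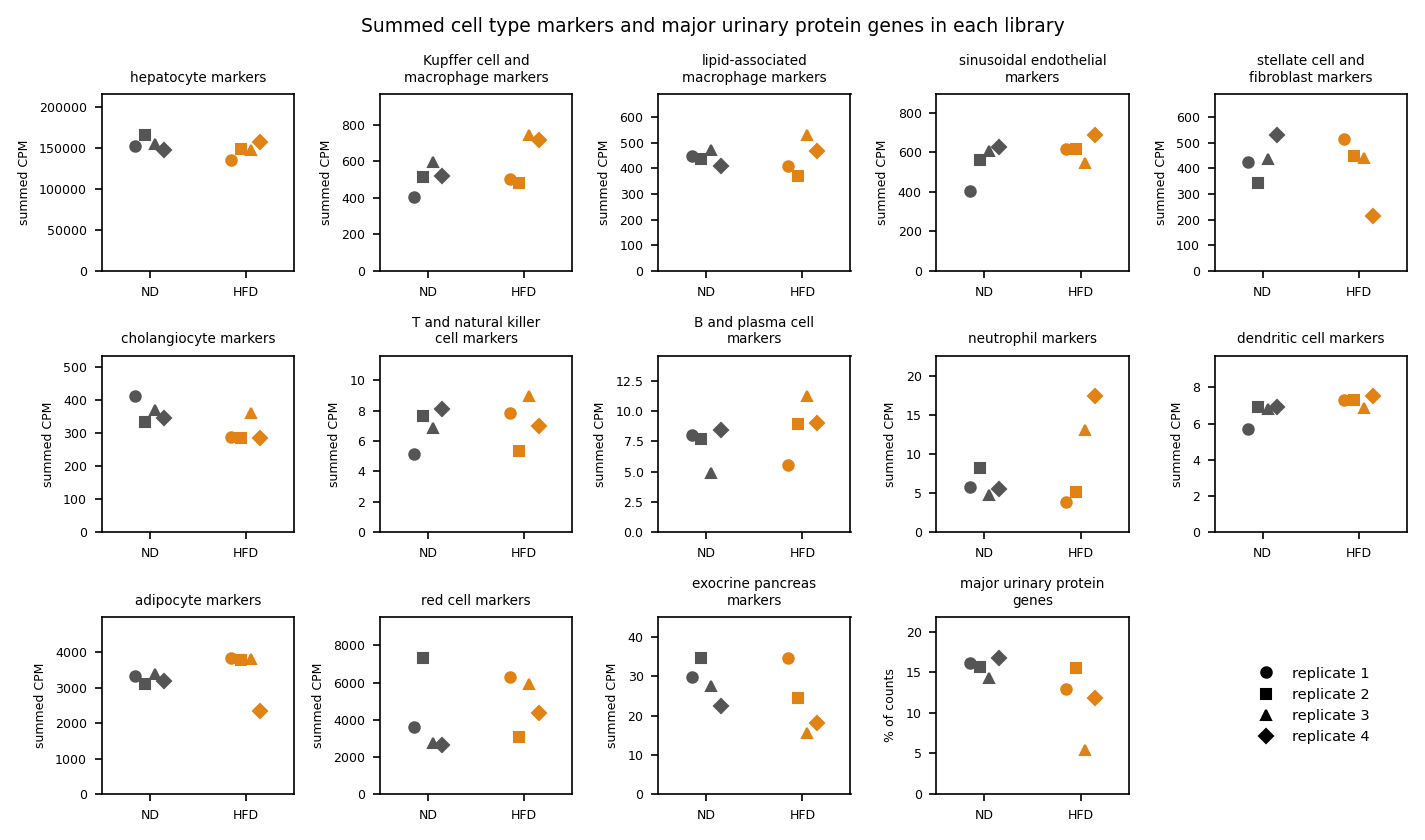
Summed CPM of 13 cell type marker lists, and the percent of counts from major urinary protein genes, in each library (1 symbol per replicate, grey ND, orange HFD, axes from 0). The ranges of the 2 groups overlap in every panel. HFD replicate 4 is low for stellate cell markers (215 CPM) and HFD replicate 3 for major urinary protein genes (5.37% of counts).

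Lipoprotein genes showed 4 rises, 3 falls and 19 not past the threshold among 26 members. Apoc2, the activator of lipoprotein lipase, read 86.2, 93.7, 80.2 and 92.9 CPM in ND and 147, 139, 225 and 181 CPM in HFD (0.97 ± 0.13, adjusted p = 0.000681). Apoa4, an apolipoprotein of triglyceride-rich particles, read 72.7, 118, 105 and 113 CPM against 853, 883, 2597 and 1084 CPM, with replicate 3 far above the rest of HFD (3.73 ± 0.47, adjusted p = 0.00187). A gene on the opposite strand covers 69.8% of its exonic sequence, and 20.8% of that of Apoa5, a regulator of plasma triglyceride that rose by 0.75 ± 0.12 (adjusted p = 0.00187). Apom, which carries sphingosine-1-phosphate on high density lipoprotein, fell by 0.78 ± 0.13 (adjusted p = 0.00208), and Sort1, a sorting receptor that affects lipoprotein export, by 0.66 ± 0.14 (adjusted p = 0.0127).

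Of 74 genes of the mitochondrial respiratory chain 1 (Ndufa8, a complex I subunit, adjusted p = 0.0409, lost without 6 of the 8 libraries) rose and 73 did not pass, although 63 were positive, with a median of 0.10. That median ran from 0.06 to 0.22 over the settings tried. Of 33 genes of mitophagy and mitochondrial dynamics, the process named in the title of the series, 2 rose and 31 did not pass (median 0.07). That is 6.1% called, near the 6.30% of all genes tested. The rises numbered 1 without ND replicate 1, ND replicate 4 or HFD replicate 3, and 4 with library totals or RPKM. Bcl2l13, a mitophagy receptor of the outer membrane, read 39.4, 37.2, 37.5 and 38.6 CPM in ND and 46.3, 50.2, 46.4 and 49.8 CPM in HFD. The rise was small and without overlap (0.33 ± 0.07, adjusted p = 0.0132). Of 39 autophagy and lysosome genes 3 rose and 36 did not pass, which is 7.7% called. None rose without ND replicate 1, ND replicate 4 or HFD replicate 3. Among 34 cell cycle genes 1 rose, 1 fell and 32 did not pass (5.9% called). Tk1, thymidine kinase of the S phase, was the one that fell, from 12.6, 20.4, 13.2 and 16 CPM to 7.71, 6.19, 3.47 and 7.01 CPM (-1.35 ± 0.24, adjusted p = 0.00378).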

How the data were processed

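Liver RNA of 12 libraries was sequenced, 4 in each of 3 groups, and each library was placed in its group, with its number, by its title. The authors deposited raw counts by gene symbol, as whole numbers, and a table of RPKM values, per the file headers. The submitters' processing notes name STAR 2.7.10a and mm10, while how reads were counted (tool, gene models, strand, filters) is not given in the sources used here. The RPKM table held 12 further columns that match no sample and were not used.

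Genes were filtered over all 12 libraries with filterByExpr of edgeR 4.0.16 (R 4.3.3), which kept 14172 genes with 99.98% of counts. Libraries were scaled with TMM, and all 3 groups were fitted by robust quasi-likelihood without a replicate block. HFD minus ND was tested by the two-sided F-test, with Benjamini-Hochberg adjustment over all tested genes and a threshold of 0.05. The common biological coefficient of variation was 0.2. In results above, ± is an approximate standard error of a log2 fold change (n = 4 per group). It is the absolute log2 fold change divided by the square root of the F statistic, so it follows from the test and is no separate measure of precision. CPM values were computed from the deposited counts with TMM-scaled totals. The scripts were tested on simulated data. Floors and ratio intervals cover counting error only.

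Alternatives were the 8 libraries alone, library totals, DESeq2 1.42.0, limma-voom (limma 3.58.1), the deposited RPKM values as log2(RPKM + 0.1) with limma, other filters, non-robust fitting, a replicate block, and leaving out each library. Leaving out HFD+MEC1 replicate 3 was added after the data were seen. Positions are from GENCODE M21, which matched 24211 symbols directly and 124 by a synonym, with 44 ambiguous and 408 unmatched.

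The comparison, the gene lists and the genes named were chosen with earlier results of these data known. Named genes are the 10 highest and 10 lowest log2 fold changes among called genes without overlap and with at least 1 CPM in the higher group, the 5 largest rises and falls in CPM among called genes, and, from each list, up to 3 called members per direction by p and a few fixed members. Others are said to be named after their values were seen. Some genes that the rule names are not reported here.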

Additional observations from a re-analysis of the deposited data

Results flagged for a closer look

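Dixon's rule was applied to 198 groups of 4 libraries (99 of the named genes, in ND and HFD). In 7 groups, the distance of a library from the nearest other, relative to the range, passed the 95% critical value for 4 samples. Chance gives about 1 in 20 such groups. In ND, E030018B13Rik stood at 3.89 CPM in replicate 2 against 1.03 to 1.26 CPM in the others, and Angptl4 at 61.6 CPM in replicate 3 against 15.8 to 22.5 CPM. In HFD replicate 1, Slc13a2 stood at 0.390 CPM against 0.0792 to 0.129 CPM, and its antisense gene Slc13a2os at 0.321 CPM against 0.00 CPM. In HFD replicate 3, Hadhb stood at 106 CPM against 85.0 to 87.5 CPM and Apoa4 at 2597 CPM against 853 to 1084 CPM. In HFD replicate 4, Elovl2 stood at 1079.5 CPM against 698 to 744 CPM.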

How the results depend on the processing

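The directions of these 99 named genes were kept in every alternative that tested them. With the minimum of 1 CPM in 4 libraries, 96 of them were tested. The 893 changed genes became 1388 with DESeq2 and 423 to 911 when each of the 8 libraries was left out (423 without HFD replicate 3, 473 without ND replicate 4, 562 without ND replicate 1). The 475 higher genes became 906 with library totals, 717 with DESeq2 and 232 to 482 with a library left out. The 418 lower genes became 233 with library totals, 242 with RPKM, 671 with DESeq2 and 191 to 429 with a library left out, and the 262 genes changed at least 2-fold became 166 to 298. Called genes were 79.5% higher with library totals and 72.6% with RPKM, against 53.2% as reported; these scalings moved the median of all genes to 0.12 and 0.08. Without HFD+MEC1 replicate 3 there were 1110 changed genes (576 higher, 534 lower). With the 8 libraries alone 13864 genes were tested and 1159 changed (589 higher, 570 lower). With the replicate block there were 896, of which 777 were shared with the 893, and among named genes Cyp2b9, Cidea, Cyp3a11 and Slc22a27 lost their calls; same-numbered ND and HFD libraries did not deviate together (correlations from -0.05 to 0.092), so the numbers were not taken to pair them. In all, 328 genes were called in every setting. At 41969827 counts or more per library, genes under about 0.0725 CPM are not resolved.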
